A study of Mus musculus with 2 samples.

Results

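General capillary endothelial cells (gCap) of the neonatal mouse lung were examined in 2 single-cell RNA sequencing (scRNA-seq) libraries, 1 from lungs that had developed in room air and 1 from lungs that had developed in hyperoxia. A cell was called gCap from its own unique molecular identifiers (UMIs), each of which stands for 1 counted mRNA molecule. It had at least 3 UMIs of the endothelial genes *Cdh5*, *Pecam1* and *Cldn5* together, no UMI of the leukocyte gene *Ptprc* or the epithelial gene *Epcam*, and at least 3 UMIs of the gCap genes *Gpihbp1*, *Plvap*, *Sema3c* and *Kit* together. The sum of these 4 genes also had to exceed the sum of the aerocyte (aCap) genes *Car4*, *Ednrb*, *Emp2*, *Tbx2* and *Fibin*, and cells with UMIs of arterial (*Gja5*, *Bmx*) or lymphatic (*Prox1*, *Mmrn1*) genes, more than 1 UMI of venous genes (*Slc6a2*, *Vwf*), or at least 3 UMIs of the cell cycle genes *Mki67*, *Top2a* and *Rrm2* were left out. These limits gave 1636 gCap cells among 15520 cells with 500 or more genes detected and no more than 20% mitochondrial UMIs. The room air library held 548 of them and the hyperoxia library 1088. Measured values therefore chose the cells, and the levels of the genes just named are given as a description.

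Both libraries came from whole lungs of C57BL/6 mice (C57BL/6J in the methods of the study) 2 weeks old. The pups were kept from birth to postnatal day 14 either in room air at 21% O2 or under hyperoxia at 80% O2, a model of bronchopulmonary dysplasia, the chronic lung disease of preterm infants. The lungs of 8 mice were pooled into each library, the labels give no sex, and the mice carried no engineered allele that the labels name. Each group is thus 1 library without a replicate, so the groups could not be tested against each other. The 95% intervals that stand beside the values (exact Poisson for levels, exact conditional for ratios, exact Clopper-Pearson for shares) cover counting error only, not the spread between mice or libraries. Those for levels and ratios take the UMIs as summed over cells, so they also leave out the spread between cells.

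The alveolar capillary bed is a mosaic of the gCap and aCap endothelial cell types. Aerocytes are large, thin cells specialised for gas exchange, while gCap cells regulate vascular tone, take part in lipid handling and antigen presentation, and serve as progenitors that maintain and repair the bed. The apelin ligand is made by aCap cells and its receptor by gCap cells, and the receptor tyrosine kinase Kit, the receptor of stem cell factor, marks the gCap population.

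The name was checked against *Cd93*, a gCap marker that did not enter the limits. *Cd93* encodes a transmembrane receptor of endothelial cells, and its level was 1638 in room air against 2212 in hyperoxia, given as the UMIs of a gene per 1000000 UMIs summed over the gCap cells (CPM). After each cell had been thinned to 2000 UMIs, 93.6% of the gCap cells of room air and 95.5% of those of hyperoxia had a *Cd93* UMI, against 8.29% and 14.9% of B cells, a lymphocyte type used as a measure of free RNA. Against aCap cells, chosen by the mirror image of the same limits, *Cd93* was higher in gCap cells by 2.56 on the log2 scale in room air and by 2.03 in hyperoxia. *Hilpda*, a lipid droplet gene also listed as a gCap marker, hardly differed between both cell types, with -0.06 and 0.16. The 10 endothelial identity genes, of which *Cdh5*, *Pecam1* and *Cldn5* chose the cells, summed to 12976 CPM in room air against 13300 CPM in hyperoxia, with a median log2 difference of 0.01. The level of *Cd93* thus does not go against the name in either library, while 4 other gCap genes outside the limits were lower in hyperoxia, as given further on.

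Depth was similar but not equal. The gCap cells held 4156050 UMIs in room air and 9589003 in hyperoxia, with medians of 7097.5 and 8421 UMIs, 2824 and 3103.5 genes, and 3.12% and 4.01% mitochondrial UMIs per cell. Of the 17 barcodes found in both libraries, 2 were gCap cells in room air and 1 in hyperoxia, and none was gCap in both. A simulation of doublets marked 12 gCap cells of room air (2.19%) and 110 of hyperoxia (10.1%), at expected rates that follow the 4234 and 13223 barcodes deposited; these cells were kept. Without them 113 genes were at least 2-fold higher and 157 lower in hyperoxia, against 124 and 150 with them, and of 65 genes followed that differed by at least 2-fold 5 no longer did so (*Ednrb*, *Igfbp7*, *Kitl*, *Gbp4* and *Spry2*).

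Among the gCap cells, the 4 gene sum had medians of 26 UMIs (room air) and 30 UMIs (hyperoxia), far from the limit of 3. Just inside the limit, 17 room air cells and 20 hyperoxia cells had medians of 1149 and 1207 UMIs in all, and the 9 and 24 cells with a sum of 2, just outside it, had 909 and 1055. Cells at the limit were therefore shallow cells. The other side of the comparison, the aCap sum, was lower in room air. Its median was 0 UMIs there against 2 in hyperoxia, and 17.2% (14.1 to 20.6) of the gCap cells of room air but 42.2% (39.2 to 45.2) of those of hyperoxia had at least 3 UMIs of the 5 aCap genes. The share of cells in which the aCap sum came to more than 33.3% of the gCap sum was 6.20% (4.33 to 8.56) and 21.1% (18.7 to 23.7).

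**Figure D1:**
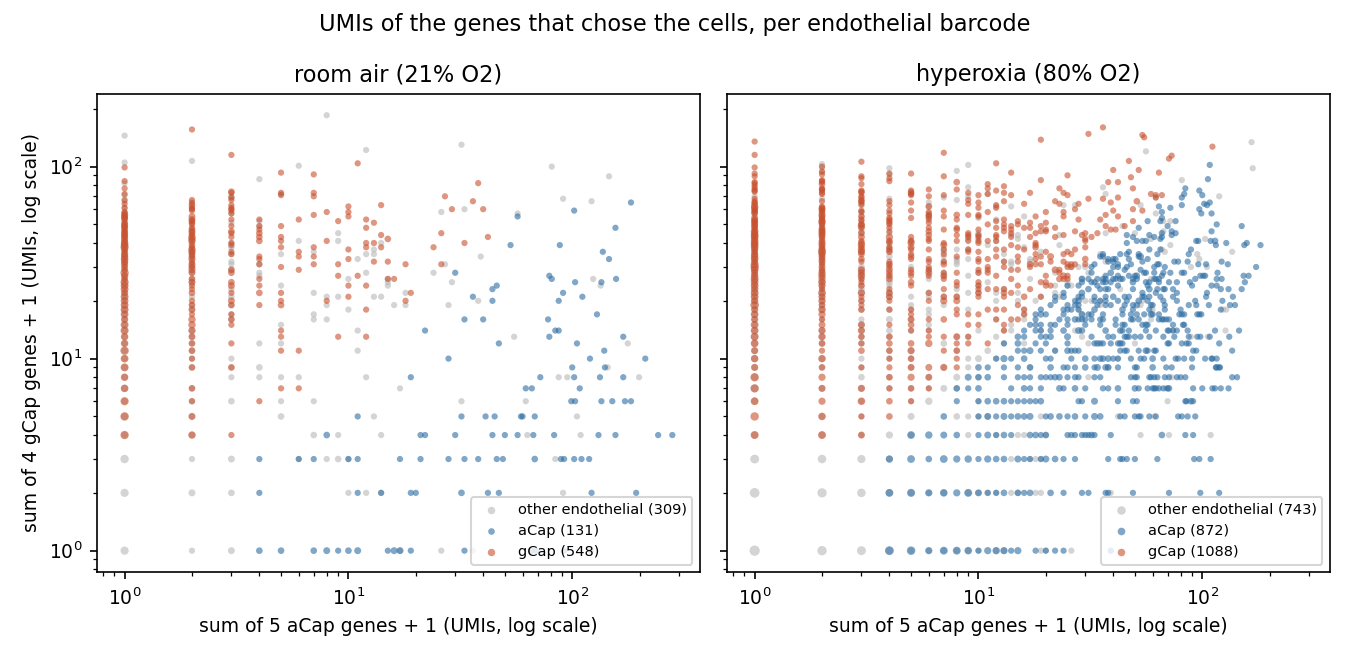
Each point is 1 endothelial barcode, with the UMIs of the 5 aCap genes plus 1 on the horizontal log axis and those of the 4 gCap genes plus 1 on the vertical log axis, in room air (left) and hyperoxia (right); larger points stand for several barcodes. The 548 gCap cells of room air lie mostly at the left edge, where the aCap sum is 0, while the 1088 gCap cells of hyperoxia and the 872 aCap cells meet along the diagonal.

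gCap cells made up a smaller part of the endothelium in hyperoxia. They were 548 of 988 endothelial cells in room air, or 55.5% (52.3 to 58.6), and 1088 of 2703 in hyperoxia, or 40.3% (38.4 to 42.1), a difference of -15.2 percentage points (-18.9 to -11.5). Of all cells kept they were 14.4% (13.3 to 15.5) and 9.29% (8.77 to 9.83). aCap cells went the other way, with 13.3% of the endothelium in room air and 32.3% in hyperoxia. The step at which cells were lost differed. Of the 872 endothelial cells of room air with at least 3 UMIs of the gCap genes, 105 had an aCap sum at least as high and were not gCap, whereas 780 of 2279 such cells of hyperoxia were removed there. Arterial genes removed 100 and 151 cells, venous genes 75 and 155, lymphatic genes 16 and 44, and cycling genes 28 and 61. Since genes that differed between the libraries chose the cells, the share depends on them: without *Sema3c* in the limits the difference was -24.4 points (-27.9 to -20.8). In cells with *Xist* UMIs and none of Y-linked genes, taken as female, the gCap share was 59.3% in room air and 38.6% in hyperoxia. In cells with UMIs of Y-linked genes and none of *Xist*, taken as male, it was 52.8% and 42.1%. Both kinds of UMIs were found in 18 gCap cells of room air and 41 of hyperoxia, so the sex of a single cell is uncertain.

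Across the 6445 genes with a mean of at least 20 CPM over both libraries, 124 (1.92%) were at least 2-fold higher and 150 (2.33%) at least 2-fold lower in the gCap cells of hyperoxia, 3333 (51.7%) were higher at all, and the median log2 difference was 0.02. With edgeR's TMM factors in place of total UMIs, 154 genes were higher and 124 lower.

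The gCap genes themselves did not move together. *Gpihbp1*, which carries lipoprotein lipase to the capillary lumen, was at 1179 CPM (1146 to 1213) in room air against 660 CPM (644 to 677) in hyperoxia. *Plvap*, which forms the diaphragms of caveolae and fenestrae, was at 888 and 672 CPM. *Kit* was at 486 CPM (465 to 508) and 191 CPM (182 to 200), -1.35 on the log2 scale and -1.24 without the simulated doublets. *Sema3c*, a secreted semaphorin, was at 1265 and 2303 CPM and so higher in hyperoxia by 0.86 on the log2 scale. All 4 chose the cells, so these levels are not independent of the choice.

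Of 5 gCap genes outside the limits, 4 were lower in hyperoxia, against 3112 of all 6445 genes. *Aplnr*, the apelin receptor (chr2:85136225-85139923), had the lowest ratio, with 296 CPM (280 to 313) in room air against 95.8 CPM (89.7 to 102) in hyperoxia, a log2 difference of -1.63 (-1.75 to -1.50). The difference was -1.89 in cells with Y-linked UMIs but -0.68 in cells with *Xist* UMIs. *Ptprb*, the endothelial phosphatase VE-PTP, was at 1982 and 1324 CPM, and *Tek*, the angiopoietin receptor Tie2 that VE-PTP dephosphorylates, at 451 and 308 CPM. *Cd93* alone of the 5 was higher in hyperoxia, by 0.43 (0.39 to 0.47). At 2000 UMIs per cell, a *Kit* UMI was found in 60.6% of the gCap cells of room air and 30.4% of those of hyperoxia, and an *Aplnr* UMI in 43.7% and 15.9%. In B cells these shares were at most 0.640%, and B cells had medians of 4656 and 3074 UMIs, so free RNA of either gene was rare in both libraries.

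aCap genes were higher in the gCap cells of hyperoxia. The 5 genes of the limits summed to 271 CPM in room air against 651 CPM in hyperoxia, among them *Car4*, the carbonic anhydrase of the capillary surface, with 62.3 CPM (55.0 to 70.4) and 264 CPM (254 to 275). For genes that the limits did not use, *Apln*, the apelin ligand (chrX:48025146-48034853), was at 41.9 CPM (35.9 to 48.6) and 148 CPM (141 to 156), a log2 difference of 1.82 (1.60 to 2.06). *Prx*, which encodes periaxin, was at 163 and 402 CPM, *Igfbp7*, a secreted binding protein of insulin-like growth factors, at 407 and 828 CPM, and *Kdr*, the main VEGF receptor, at 551 and 733 CPM. All 6 measured aCap genes outside the limits were higher in hyperoxia, 3 of them by at least 2-fold (1.92% of all genes), with a median log2 difference of 0.83 in gCap cells and -0.25 in aCap cells. *Igfbp7*, at 1.02 on the log2 scale, no longer passed 2-fold without the simulated doublets (0.91), without the gCap cells rich in aCap genes (0.82) or without *Sema3c* in the limits (0.74). The log2 ratio of gCap over aCap was -3.95 in room air and -1.94 in hyperoxia for *Apln*, and -1.88 and -0.84 for *Prx*, so that both genes were less far apart between the cell types in hyperoxia. This was not particular to them. Of 736 genes at least 2-fold apart between the cell types in room air, 629 (85.5%) were less far apart in hyperoxia. The room air ratios rest on 131 aCap cells.

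These values were split by the aCap sum of the cell, a split made after the values had been seen. In gCap cells without any UMI of the 5 aCap genes (283 in room air, 323 in hyperoxia), *Apln* was at 34.7 and 105 CPM, a log2 difference of 1.60 (1.19 to 2.04), and *Prx* at 161 and 311 CPM. In cells with at least 3 such UMIs the *Apln* difference was 1.53 (1.19 to 1.89). *Kdr* behaved otherwise, with -0.32 (-0.45 to -0.19) in cells at 0 and 0.86 (0.74 to 0.98) in cells with at least 3, so that the direction over all gCap cells depended on which of these cells were counted. Without the simulated doublets the log2 difference was 1.66 for *Apln*, 1.79 for *Car4* and 0.93 for *Ednrb*, the endothelin receptor B gene, against 1.29 with them. A UMI of *Apln* was found in 4.17% and 18.2% of gCap cells at 2000 UMIs, and in 0.276% and 0.8% of B cells. The part of mixed droplets in the aCap genes of these cells was not tested further.

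Genes were ranked by their ratio among those with a mean of at least 50 CPM that were no lower in gCap cells than in immune, epithelial and stromal cells of the library where they were higher and that had the same direction in cells with *Xist* and in cells with Y-linked UMIs. The 12 highest ratios belonged to *Fabp4*, *Cdkn1a*, *Tinagl1*, *Timp3*, *Ankrd37*, *Fgfr3*, *Apln*, *Bax*, *Ccnd1*, *Ly6c1*, *Ddah1* and *Sema7a*. *Fabp4*, a fatty acid carrier, was high in very few cells and is described with them. *Ankrd37*, known as a target of hypoxia-inducible factors, was at 14.7 and 96.4 CPM, a log2 difference of 2.71 (2.34 to 3.11), while in aCap cells it was at 97.6 and 93.0 CPM. *Ccnd1*, cyclin D1, was at 331 and 1008 CPM. *Ddah1*, the enzyme that degrades an inhibitor of nitric oxide synthase, was at 107 and 310 CPM in gCap cells and at 263 and 236 CPM in aCap cells. *Sema7a*, a membrane-anchored semaphorin, was at 39.9 and 108 CPM, and *Ly6c1*, a surface protein of many endothelial cells, at 210 and 612 CPM. In room air 10 of these 12 genes, all but *Fabp4* and *Tinagl1*, were lower in gCap than in aCap cells, with log2 ratios of -0.62 (*Bax*) to -3.95 (*Apln*). The ranking favours genes with a low level in the gCap cells of room air, so this count is a description only.

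The 12 lowest ratios belonged to *Wif1*, *Iigp1*, *H2-Q6*, *H2-Q7*, *Dnah8*, *Prdm8*, *Aplnr*, *Gbp7*, *Irgm1*, *Hlx*, *Ypel3* and *Fbln2*. *Wif1*, a secreted inhibitor of Wnt ligands (chr10:121033960-121100650), was at 132 CPM (122 to 144) in room air against 20.4 CPM (17.7 to 23.5) in hyperoxia, a log2 difference of -2.69 (-2.94 to -2.46). Its UMIs were found in 18.1% and 3.48% of gCap cells at 2000 UMIs and in at most 0.320% of B cells. *Prdm8*, a member of the PRDM family of transcriptional regulators, was at 149 and 48.1 CPM, and *Hlx*, a homeobox gene, at 190 and 66.3 CPM. *Fbln2*, a matrix glycoprotein gene, was at 115 and 40.4 CPM. The dynein heavy chain gene *Dnah8* was at 93.6 and 25.9 CPM. Of these 12 genes, *H2-Q6*, *H2-Q7*, *Iigp1*, *Gbp7* and *Irgm1* belong to MHC class I or are induced by interferon, the groups that follow further on.

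**Figure D2:**
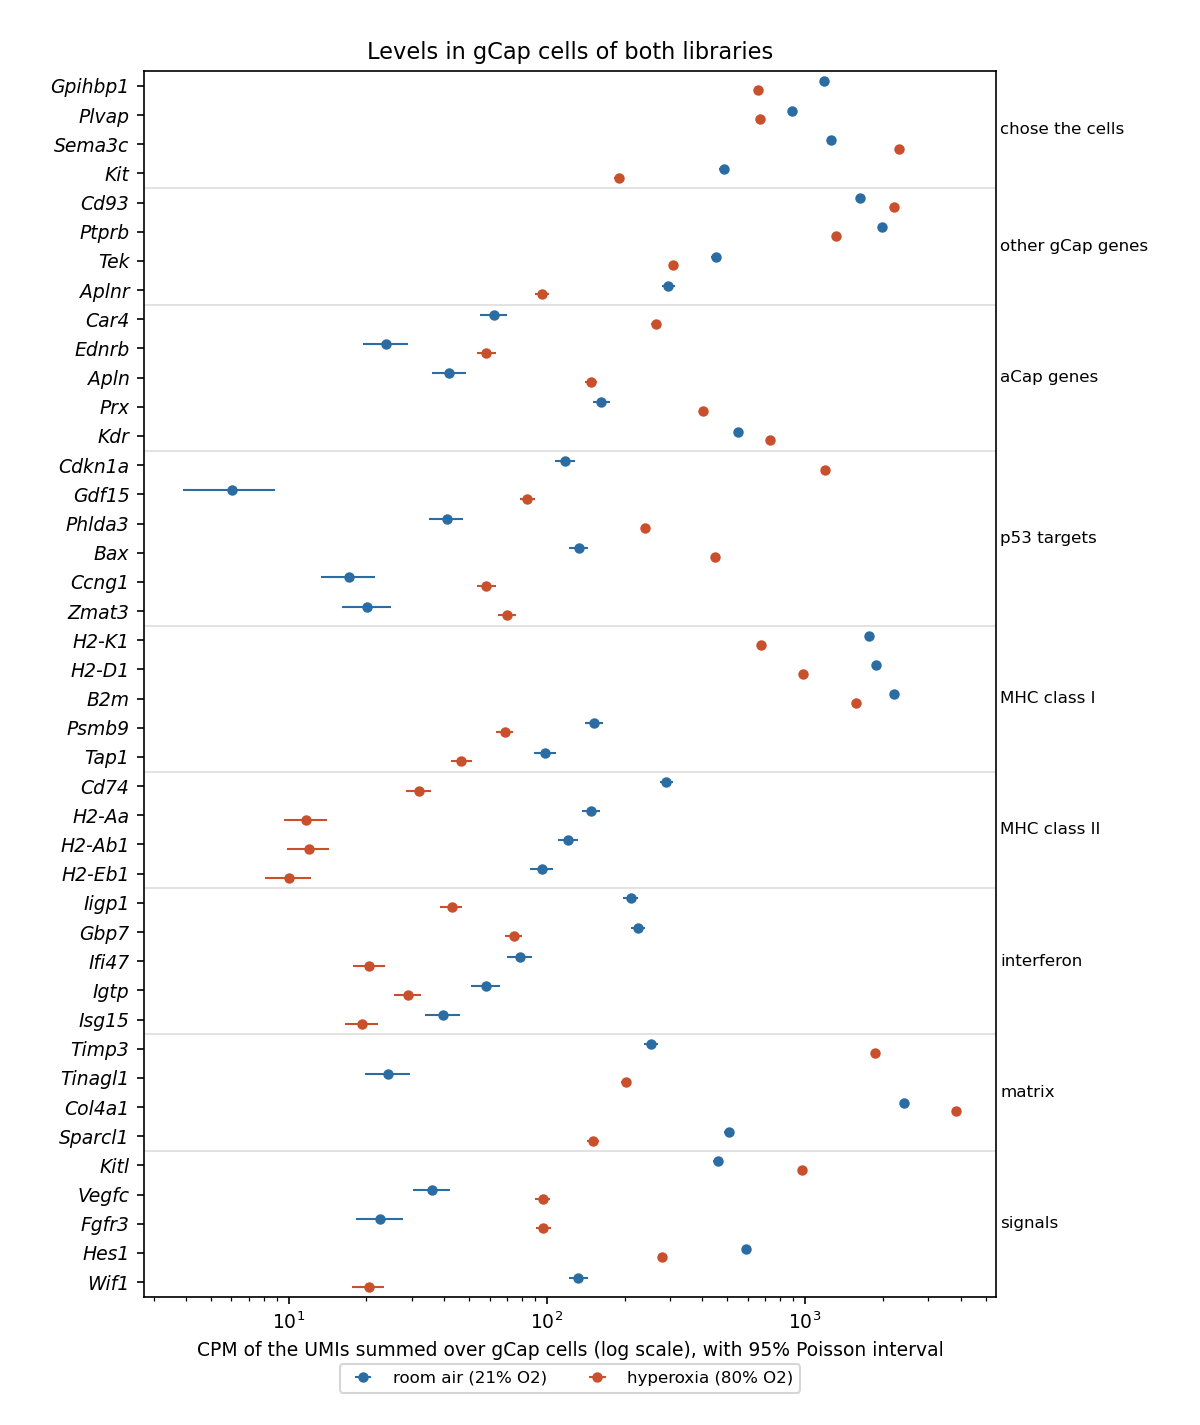
Levels of named genes in the gCap cells of room air (blue) and hyperoxia (red), in CPM on a log axis with 95% Poisson intervals; gene groups are named at the right. p53 targets such as *Cdkn1a* (118 and 1200 CPM) lie to the right in hyperoxia, and MHC class I, class II and interferon-induced genes such as *Gbp7* (226 and 74.6 CPM) lie to the left.

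Targets of p53, the transcription factor that responds to DNA damage and other stress, were higher in hyperoxia. Of 14 listed targets 12 were measured at the minimum of 20 CPM, 11 of them were higher and 7 at least 2-fold higher, against 1.92% of all genes. *Gdf15*, among others, was under 20 CPM in room air and passed the minimum through hyperoxia, which favours higher genes in this count. The median log2 difference of the 12 was 1.67, against 0.02 over all genes. *Cdkn1a*, which encodes the cell cycle inhibitor p21 (chr17:29090976-29100727), was at 118 CPM (108 to 129) in room air against 1200 CPM (1178 to 1222) in hyperoxia, 10.2-fold higher. At 2000 UMIs per cell 20.1% of the gCap cells of room air and 79.5% of those of hyperoxia had a *Cdkn1a* UMI, against 4.42% and 14.2% of B cells. Most gCap cells of hyperoxia thus held the transcript. At full depth at least 10 of its UMIs were found in 3 cells of room air but in 440 (40.4%) of hyperoxia.

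*Gdf15*, a secreted stress cytokine, was at 6.02 and 84.2 CPM, and *Phlda3*, an inhibitor of the kinase Akt, at 40.9 and 241 CPM. *Bax*, the pore-forming protein of apoptosis, was at 133 CPM (122 to 145) and 448 CPM (435 to 462). The RNA-binding protein gene *Zmat3*, the cyclin gene *Ccng1* and the nuclease gene *Aen* were between 14.4 and 20.2 CPM in room air against between 43.3 and 70.2 CPM in hyperoxia. *Mdm2*, the negative regulator of p53, was at 59.7 and 76.5 CPM, and *Plk2*, a polo-like kinase gene, was the single target with a lower level, 516 and 424 CPM. Across the cells, the summed level of the 14 genes had a median of 1188 CPM per cell in room air and 2777 CPM in hyperoxia, and its lower quartile in hyperoxia (1944 CPM) was above the upper quartile in room air (1711 CPM). In aCap cells the median log2 difference of the same targets was 1.12. *Cdkn1a* was higher by 2.52 in aCap cells, 3.93 in stromal, 1.99 in epithelial and 0.74 in immune cells, so a higher level was not limited to gCap cells. Within gCap cells it was higher by 2.96 in those without aCap UMIs, by 4.05 in those with *Xist* and by 3.37 in those with Y-linked UMIs.

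Promoter sequences of targets are shown because p53 binds DNA at a known motif. RefSeq gives a promoter on GRCm38.p6 for 12 of the listed targets, read here as the 250 bases before the start of transcription. A half-site of the p53 response element was found on either strand in 6 of the 12 (*Cdkn1a*, *Mdm2*, *Ccng1*, *Bax*, *Aen*, *Ei24*) and in 8.20% of the 27025 genes of the table. Here and for the other motifs, a gene with several starts counted if any of them matched. The promoter of *Cdkn1a* (chr17:29090729-29090978, plus strand, 1 of 2 starts listed, chosen by its matches) and that of *Bax* (chr7:45466899-45467148, minus strand) are printed 5′ to 3′ with the half-sites in capitals.
Cdkn1a: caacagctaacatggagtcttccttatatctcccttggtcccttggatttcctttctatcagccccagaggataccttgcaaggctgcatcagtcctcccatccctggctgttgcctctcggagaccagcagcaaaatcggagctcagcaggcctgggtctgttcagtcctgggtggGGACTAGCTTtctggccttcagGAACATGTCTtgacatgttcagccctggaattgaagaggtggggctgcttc
Bax: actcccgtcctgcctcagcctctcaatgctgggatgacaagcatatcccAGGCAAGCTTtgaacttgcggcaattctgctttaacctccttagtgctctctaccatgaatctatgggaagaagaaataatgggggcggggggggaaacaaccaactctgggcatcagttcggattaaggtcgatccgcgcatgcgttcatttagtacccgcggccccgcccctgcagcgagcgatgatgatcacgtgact
A match is a description of these letters and does not show binding.

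MHC class I genes were lower in hyperoxia. The class I molecules present peptides made in the cell to cytotoxic T cells, after the immunoproteasome has cut them and the TAP transporter has carried them into the endoplasmic reticulum. Of 13 listed genes 12 were measured, all 12 were lower and 6 at least 2-fold lower, against 2.33% of all genes, with a median log2 difference of -1.01. *H2-K1*, a heavy chain gene (chr17:33996017-34000347), was at 1770 CPM (1730 to 1811) in room air against 674 CPM (657 to 690) in hyperoxia, and *H2-D1*, the other classical heavy chain, at 1880 and 980 CPM. *B2m*, the shared light chain, was at 2207 and 1574 CPM. *Psmb9*, a subunit of the immunoproteasome, was at 152 and 68.7 CPM, and *Tap1*, of the transporter, at 98.7 and 46.6 CPM. The heavy chain through its light chain, protease and transporter were thus all lower, by 0.49 to 1.39 on the log2 scale for the 5 genes named.

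The nonclassical genes *H2-Q4*, *H2-Q6* and *H2-Q7* were at 412, 248 and 507 CPM in room air against at 166, 59.0 and 136 CPM in hyperoxia. They are close copies of one another, and reads that fit several copies could have been assigned among them, so the value of a single copy is uncertain. Per cell, the summed class I level had a median of 7910 CPM in room air against 3791 CPM in hyperoxia. In aCap cells the median log2 difference of the list was -0.60, and *H2-K1* was at 909 and 629 CPM there. *H2-K1* differed by 0.28 in stromal, -0.64 in immune and -0.29 in epithelial cells. In room air its level was higher in gCap than in aCap cells by 0.96 on the log2 scale, and in hyperoxia by 0.10. The class I median in gCap cells was -1.01 in cells with *Xist* and -0.97 in cells with Y-linked UMIs.

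MHC class II genes, which present peptides from outside the cell to helper T cells and are known to be expressed by gCap cells, had the widest median difference of the lists given here. All 4 genes measured of 7 listed were at least 2-fold lower in hyperoxia, against 2.33% of all genes, with a median log2 difference of -3.30. *Cd74*, the invariant chain, was at 290 CPM (274 to 307) in room air against 31.9 CPM (28.4 to 35.7) in hyperoxia. *H2-Aa* was at 148 and 11.7 CPM, *H2-Ab1* at 121 and 12 CPM and *H2-Eb1* at 95.5 and 10 CPM. In aCap cells *Cd74* was at 29.8 and 28.6 CPM and *H2-Aa* at 15.4 and 11.7 CPM. The hyperoxia gCap cells were thus at the level of aCap cells of either library, while the room air gCap cells were above it. B cells, which make these proteins, had *Cd74* UMIs in 95% and 91.8% of cells at 2000 UMIs, so free RNA of these genes was at hand in both libraries, and aCap cells had them in 3.74% and 3.99%. Among gCap cells the share was 16.5% in room air and 4.47% in hyperoxia. The hyperoxia share is therefore close to the background.

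Few cells carried most of the class II transcripts of room air. There 51 of 548 gCap cells (9.31%) had at least 10 UMIs of the 4 genes, and these 51 held 77.1% of the 2724 UMIs, while 246 cells had 1 to 9 and 251 had none. In hyperoxia 6 of 1088 cells (0.551%) had at least 10 UMIs and held 31.3% of the 629 UMIs, so that most lay in the 317 cells with 1 to 9. A single room air cell held 983 UMIs. It had 36015 UMIs in all, 68 of the gCap genes, and also 678 of *Cst3*, 91 of *Ccl5* and 10 of *Tyrobp*, genes known from dendritic and other immune cells. Without the richest cell of each library the summed level was 423 CPM in room air against 59.3 CPM in hyperoxia, a log2 difference of -2.83, against 655 and 65.6 CPM and -3.32 with it.

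The 51 class II cells of room air carried the gCap genes, a look taken after their values were seen. *Gpihbp1* and *Kit* chose the cells, so their presence is a description. *Gpihbp1* was found in 98.0% of the 51 cells and 94.0% of the other 497, and *Kit* in 96.1% and 85.3%. *Cd93* was found in 98.0% and 96.0%, and *Aplnr* in 90.2% and 72.8%. Levels were 1081 and 1195 CPM for *Gpihbp1*, 469 and 489 CPM for *Kit*, 1660 and 1634 CPM for *Cd93*, and 284 and 298 CPM for *Aplnr*. The gCap sum of the 51 cells had a median of 40 UMIs, against 24 in the other 497 cells. The 51 cells were also deeper, with a median of 8893 UMIs against 6848. *Ciita*, the master regulator of class II transcription, had a UMI in 17.6% of them and in 2.41% of the others. The interferon-induced genes *Iigp1* and *Gbp7* were at 363 and 340 CPM in the 51 cells and at 187 and 208 CPM in the others. Immune genes were seen in some of both: *Lyz2* was found in 47.1% of the 51 cells and 35.0% of the others, at 60.8 and 67.0 CPM. The other immune genes given here were at higher levels in the 51 cells. *Tyrobp* was found in 11.8% and 7.65%, at 30.4 and 11.95 CPM. The leukocyte gene *Coro1a* was found in 21.6% and 7.04%, at 39.4 and 10.3 CPM. The B cell gene *Cd79a* was found in 5.88% and 2.62%, at 25.05 and 3.89 CPM. *Cd79b*, also of B cells, was at 16.1 and 3.06 CPM, and *Ccl5* at 169.95 and 5.28 CPM. The cell with 983 class II UMIs held 91 of the 95 *Ccl5*, 10 of the 17 *Tyrobp* and 6 of the 22 *Coro1a* UMIs. In the 6 cells of hyperoxia, *Cd79a* was found in 3 and *Coro1a* in 4. With every class II rich cell left out, together with the cells rich in *Fabp4*, *Glycam1* or *H19*, *Cd74* had a log2 difference of -1.66 and *H2-Aa* of -2.37, which rests on cells with few UMIs of these genes. Without the simulated doublets the difference was -2.85 for *Cd74* and -3.24 for *H2-Aa*.

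Promoters of MHC genes are shown for the CCAAT box, a part of the shared control region of class I and class II genes. The letters CCAAT were found on either strand in 10 of 11 class I promoters and 4 of 4 class II promoters given by RefSeq, against 37.5% of all genes. In the promoters of *H2-K1* (chr17:34000334-34000583, minus strand, 1 of 2 starts listed, chosen by its matches) and *H2-Aa* (chr17:34287824-34288073, minus strand) the boxes are in capitals, read as ATTGG where they lie on the other strand.
H2-K1: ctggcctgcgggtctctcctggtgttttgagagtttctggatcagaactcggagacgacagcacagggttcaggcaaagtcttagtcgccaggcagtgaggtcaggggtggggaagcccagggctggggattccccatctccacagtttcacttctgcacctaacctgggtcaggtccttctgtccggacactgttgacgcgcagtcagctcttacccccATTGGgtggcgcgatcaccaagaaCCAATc
H2-Aa: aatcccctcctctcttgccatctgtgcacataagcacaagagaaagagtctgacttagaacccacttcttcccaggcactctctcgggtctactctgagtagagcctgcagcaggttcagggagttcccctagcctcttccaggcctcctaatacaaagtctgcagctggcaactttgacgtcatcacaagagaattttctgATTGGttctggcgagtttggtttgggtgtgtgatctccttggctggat
The box is common and its presence says nothing of the level.

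Genes induced by interferon were lower in hyperoxia, with exceptions. Interferons act on antiviral and antimicrobial genes, among them the guanylate-binding proteins and the immunity-related GTPases. Of 20 listed genes 13 were measured, 11 were lower and 7 at least 2-fold lower (*Iigp1*, *Ifi47*, *Gbp7*, *Gbp2*, *Isg15*, *Gbp4* and *Igtp*), against 2.33% of all genes, and the median log2 difference was -1.0. *Iigp1* was at 211 CPM (197 to 225) and 42.8 CPM (38.7 to 47.1), *Gbp7* at 226 and 74.6 CPM and *Ifi47* at 78.7 and 20.5 CPM. The transcription factor gene *Irf1* was at 246 CPM in room air against 155 CPM in hyperoxia. The exceptions were *Ly6a*, a surface protein also known as Sca-1, at 650 and 1240 CPM, and *Bst2*, at 476 and 499 CPM. Since these abundant genes differed the other way, the summed level of the list was 3938 CPM in room air against 3670 CPM in hyperoxia, and its median per cell 3591 and 3395 CPM.

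At 2000 UMIs an *Iigp1* UMI was found in 24.1% and 5.96% of gCap cells and in 0.829% and 0.720% of B cells, and a *Gbp7* UMI in 32.4% and 12%, against 6.63% and 4.88% of B cells. In aCap cells the list median was -1.07. *Iigp1* was at 31.6 and 22.8 CPM there, a log2 difference of -0.47 (-1.0 to 0.09) whose interval holds 0, while *Gbp7* differed by -1.27. *Iigp1* and *Gbp7* differed by -0.41 and -0.16 in stromal cells and by 0.45 and -0.21 in immune cells. *Igtp* and *Gbp4* lie at the 2-fold limit (-1.0 for both), and in cells with *Xist* UMIs they differed by -0.64 and -0.71.

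Promoters of interferon-induced genes are shown for motifs known from genes that respond to interferon. The core of the interferon-stimulated response element, TTTCNNTTT on either strand, was found in 12 of 15 promoters of the list (80%) and in 10.8% of all genes. The gamma-activated sequence (GAS), TTCNNNGAA, was found in 7 of 15 (46.7%) and in 8.13% of all genes. Both are in capitals in the promoters of *Gbp7* (chr3:142530086-142530335, plus strand) and *Ifi47* (chr11:49076337-49076586, plus strand), where *Gbp7* has 1 response element core and 2 GAS motifs, and *Ifi47* has 1 core on the other strand.
Gbp7: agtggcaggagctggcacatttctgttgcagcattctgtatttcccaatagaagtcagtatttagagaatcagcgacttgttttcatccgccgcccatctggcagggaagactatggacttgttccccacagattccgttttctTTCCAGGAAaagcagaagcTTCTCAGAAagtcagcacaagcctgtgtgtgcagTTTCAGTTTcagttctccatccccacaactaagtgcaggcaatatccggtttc
Ifi47: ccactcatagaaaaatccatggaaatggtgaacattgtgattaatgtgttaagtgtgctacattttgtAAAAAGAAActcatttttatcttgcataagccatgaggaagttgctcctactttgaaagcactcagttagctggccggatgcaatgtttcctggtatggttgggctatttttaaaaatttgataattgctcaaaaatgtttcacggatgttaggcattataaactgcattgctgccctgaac
None of the printed motifs overlap, and the list was chosen from genes known to respond to interferon.

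**Figure D3:**
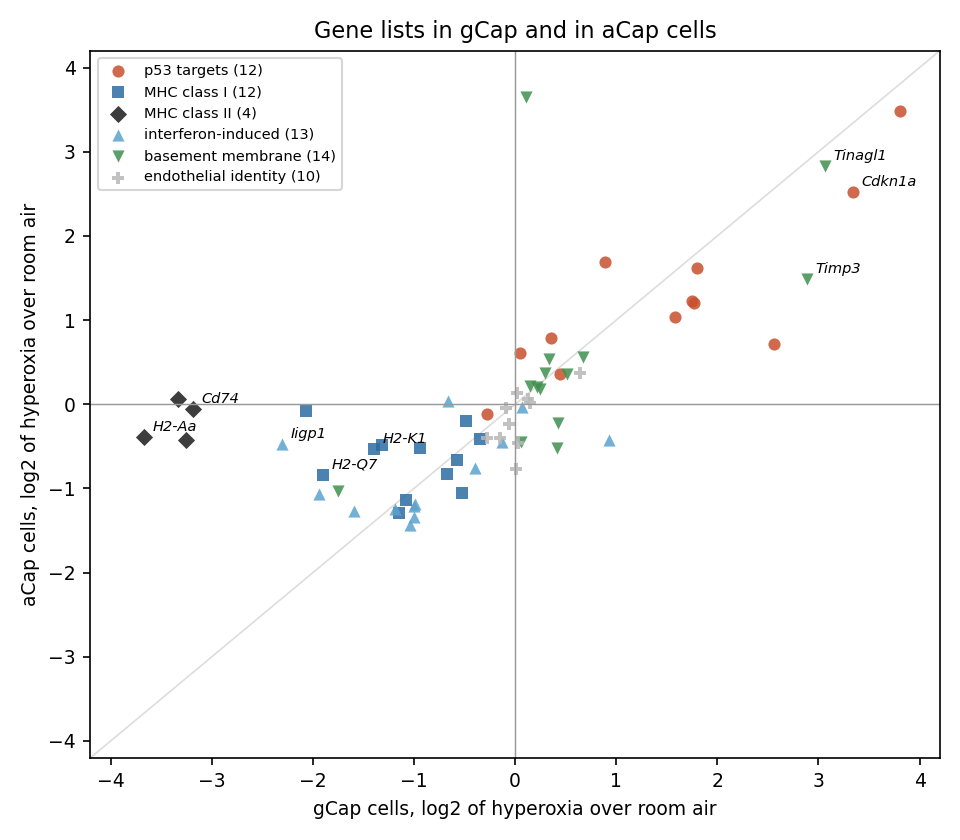
Log2 of hyperoxia over room air in gCap cells (horizontal) and aCap cells (vertical), 1 point per measured gene of 6 lists; the diagonal marks equal differences. The p53 targets lie mostly in the upper right, with *Plk2* left of 0, while the 4 MHC class II genes lie at -3.18 to -3.67 in gCap cells and within 0.43 of 0 in aCap cells; the high green point at the top is *Col15a1*, with a level of 1.81 CPM in the room air aCap cells.

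Genes of the basement membrane and matrix were mostly higher in hyperoxia. Of 14 measured genes 13 were higher, against 51.7% of all genes, 2 of them by at least 2-fold (1.92% of all genes), and 1 was lower by at least 2-fold (2.33%), with a median log2 difference of 0.32. *Timp3*, a matrix-bound inhibitor of metalloproteinases (chr10:86300372-86349506), was at 253 CPM (238 to 269) in room air against 1868 CPM (1841 to 1896) in hyperoxia, 7.38-fold higher, and *Tinagl1*, a matricellular protein gene (chr4:130164454-130175122), at 24.3 and 203 CPM, 8.35-fold higher. The collagen IV genes *Col4a1* and *Col4a2*, which form the sheet of the basement membrane, were at 2420 and 1334 CPM in room air against at 3846 and 1908 CPM in hyperoxia. *Sparcl1*, a secreted matricellular protein gene, was at 508 and 151 CPM. Laminin, nidogen and perlecan genes had log2 differences of 0.06 to 0.43. The summed level per cell had a median of 7857 CPM in room air against 11892 CPM in hyperoxia.

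*Timp3* was spread over the cells of hyperoxia, where 555 (51.0%) had at least 10 UMIs, against 21 (3.83%) in room air. At 2000 UMIs it was found in 31.6% and 82.0% of gCap cells, against 4.42% and 10.6% of B cells. In room air its level in aCap cells, 1288 CPM, was above that of gCap cells, and the aCap level in hyperoxia was 3621 CPM. Within gCap cells without aCap UMIs the log2 difference was 2.72, and in those with at least 3 it was 2.52. *Tinagl1* by contrast was higher in gCap than in aCap cells in both libraries, by 1.58 and 1.81.

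**Figure D4:**
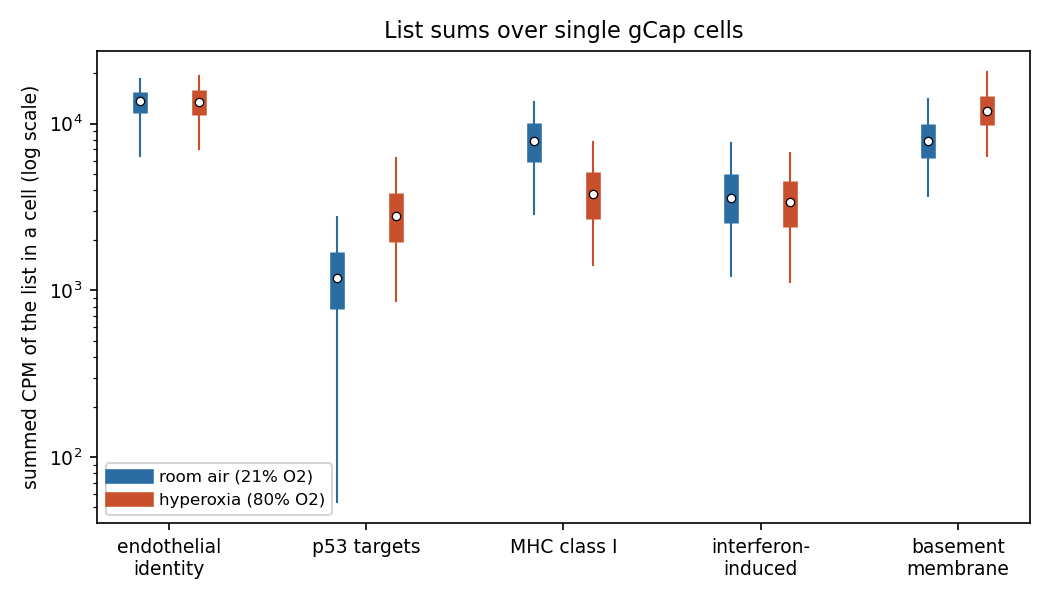
Summed CPM of 5 gene lists per gCap cell on a log axis, in room air (blue) and hyperoxia (red); circles are medians, boxes reach from the lower to the upper quartile and lines from the 5th to the 95th percentile of 548 and 1088 cells. Boxes of the p53 targets do not overlap (medians 1188 and 2777 CPM), those of MHC class I (7910 and 3791 CPM) also do not, and those of endothelial identity genes (13590 and 13401 CPM) overlap.

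Among signalling genes, the receptor and ligand of the Kit system differed in opposite directions. *Kit* was lower, but it was among the genes that chose the cells, so its level is not independent of the choice. The median log2 difference of both genes was -0.14 in gCap cells and -0.83 in aCap cells, which *Kit* also helped to choose. *Kitl*, which encodes stem cell factor, was at 460 CPM (440 to 481) in room air against 973 CPM (953 to 993) in hyperoxia, a log2 difference of 1.08. It was found in 54.7% and 72.9% of gCap cells at 2000 UMIs and in 1.93% and 4.80% of B cells. In aCap cells *Kitl* was at 2558 and 2820 CPM, and its difference was 0.63 without the gCap cells rich in aCap genes and 0.92 without the simulated doublets. In the VEGF pathway the ligand gene *Vegfc* was at 35.9 and 96.4 CPM, whereas the receptor genes *Flt1* and *Flt4* were at 593 and 84.0 CPM in room air against at 594 and 48.6 CPM in hyperoxia. Of 7 measured genes of this pathway 1 was at least 2-fold higher and none at least 2-fold lower, against 1.92% and 2.33% of all genes.

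The FGF receptors differed from one another. *Fgfr1* was at 16.8 CPM (13.1 to 21.3) in room air against 28.4 CPM (25.1 to 31.9) in hyperoxia, a log2 difference of 0.75 (0.37 to 1.15), and *Fgfr2* at 29.1 and 29.8 CPM. *Fgfr3* (chr5:33721674-33737068) had the widest difference of the 3, with 22.6 CPM (18.3 to 27.7) and 97.1 CPM (91.0 to 104), or 2.1 (1.79 to 2.42). At 2000 UMIs *Fgfr1* was found in 1.99% and 3.57% of gCap cells and in 1.38% and 1.44% of B cells, so that its share in room air was near the background, while *Fgfr3* was found in 3.78% and 16.2%, against 0.552% and 0.8%. Of the feedback inhibitors of FGF signalling, *Spry2* was at 62.1 and 30.2 CPM, *Spry1* at 55.6 and 42.8 CPM, *Spry4* at 136 and 140 CPM and *Dusp6* at 281 and 252 CPM. The 8 measured genes of the list had a median log2 difference of 0.02. Of the 8, 1 was at least 2-fold higher and 1 at least 2-fold lower, against 1.92% and 2.33% of all genes.

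Notch pathway genes had a median of -0.26 over 9 genes, 6 of which were lower, against 3112 of all 6445 genes. Of its targets, *Hes1* was at 591 CPM (568 to 615) and 280 CPM (269 to 291), *Hey1* at 188 and 99.3 CPM and *Nrarp* at 110 and 57.1 CPM. The ligand gene *Dll4* was at 127 and 75.5 CPM, and the receptor genes *Notch1* and *Notch4* differed by -0.26 and -0.02. The ligand gene *Jag2* was at 27.4 and 47.9 CPM. *Hes1* also differed in the other cell types, by -1.17 in aCap, -0.65 in stromal, -1.08 in immune and -1.31 in epithelial cells. BMP and TGF-beta genes (13 measured, median -0.07) held 1 gene at least 2-fold lower (2.33% of all genes), *Bmp4*, at 53.2 and 25.9 CPM. Its log2 difference of -1.04 was -0.45 in cells without UMIs of 6 stromal genes and -0.64 without the gCap cells rich in aCap genes. Wnt genes (10 measured, median -0.10) held *Wif1*.

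Measured genes of leukocyte adhesion and coagulation were higher in hyperoxia. Of 10 listed adhesion genes 5 were measured and all 5 were higher, against 51.7% of all genes, 2 of them by at least 2-fold (1.92%). *Icam1*, a ligand of leukocyte integrins, was at 64.2 and 154 CPM, and *Cd34*, a sialomucin gene, at 530 and 879 CPM. *Icam1* differed by 1.26 on the log2 scale, but by 0.95 without the gCap cells rich in aCap genes and 0.82 without *Sema3c* in the limits. The other gene past 2-fold was *Glycam1*, which 3 cells carried. Of 11 listed coagulation genes 5 were measured and all 5 were higher, against 51.7% of all genes. *Thbd*, the cofactor of thrombin in protein C activation, was at 717 and 1155 CPM. *Ackr3*, the scavenging receptor of the chemokine made from *Cxcl12*, was at 80.1 and 211 CPM and *Cxcl12* at 458 and 382 CPM. In lipid handling, *Scarb1*, the receptor of high-density lipoprotein, was at 264 and 125 CPM, *Cd36*, the fatty acid translocase, at 1418 and 1128 CPM and *Lpl* at 118 and 119 CPM.

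Stress genes other than p53 targets differed less. Of 12 measured antioxidant genes 10 were higher, against 51.7% of all genes, with a median of 0.43. Only 1 was at least 2-fold higher (1.92% of all genes). That gene was *Hmox1*, heme oxygenase 1, at 19 and 38.7 CPM, a log2 difference of 1.03 that was 2.52 in cells with *Xist* UMIs, 0.07 in cells with Y-linked UMIs and -0.13 in cells without any UMI of 6 stromal genes. The list of glycolysis genes and of hypoxia-inducible factors with their targets, which does not hold *Ankrd37*, had a median of 0.32 over 11 genes and none of the 11 passed 2-fold. Of 6 heat shock genes *Hspb1* was at 45.2 and 170 CPM. The 12 immediate early genes, which also respond to tissue dissociation, had a median of 0.23, and the 6 genes of the unfolded protein response -0.02. Genes of endothelial junctions (10 measured), caveolae (7), vascular tone (10) and endothelial transcription factors (15) had medians between -0.11 and 0.11, and none of them passed 2-fold. Among them *Klf4*, a factor induced by flow, was at 597 and 1172 CPM and *Foxo1*, a factor of endothelial quiescence, at 136 and 67.9 CPM. The clock gene *Per3* was at 36.6 and 12.4 CPM.

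**Figure D5:**
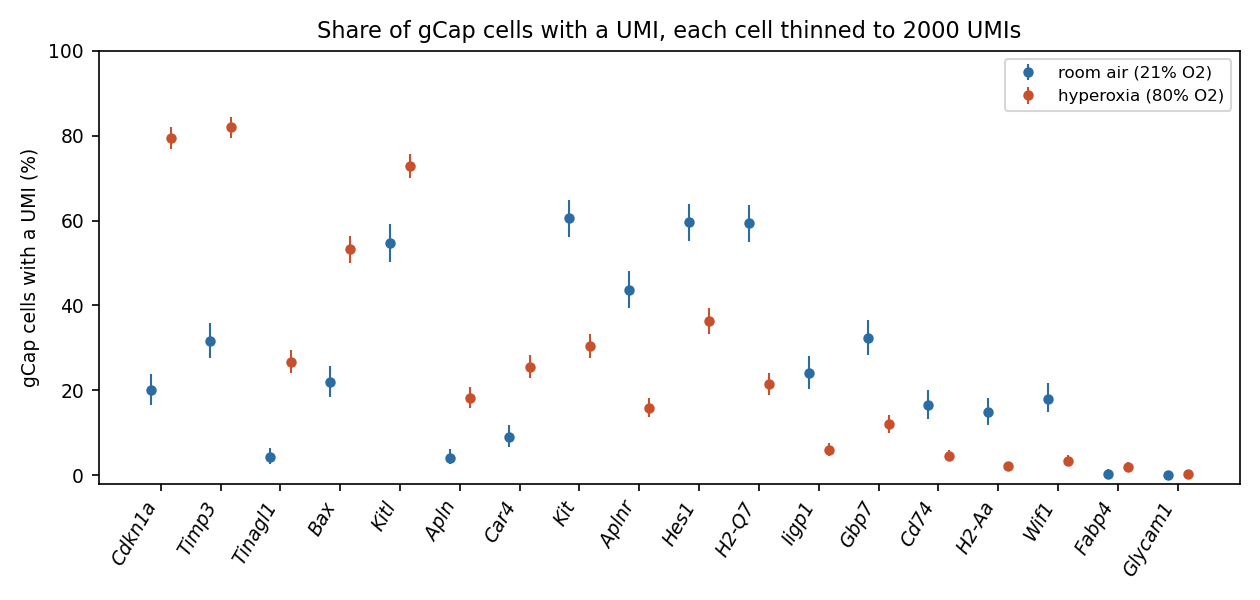
Share of gCap cells with at least 1 UMI of a gene after each cell was thinned to 2000 UMIs, in percent with 95% Clopper-Pearson intervals, for 503 cells of room air (blue) and 1007 of hyperoxia (red). The share was 20.1% and 79.5% for *Cdkn1a* and 60.6% and 30.4% for *Kit*, while *Fabp4* and *Glycam1* were found in at most 1.99% of the cells.

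Fewer genes set gCap apart from aCap cells in hyperoxia. Of 6548 genes, 364 (5.56%) were at least 2-fold higher in gCap than in aCap cells in room air and 221 (3.38%) in hyperoxia, and 372 (5.68%) and 216 (3.3%) were at least 2-fold lower. Both libraries shared 192 (2.93%) of the higher and 176 (2.69%) of the lower genes. These counts rest on 131 aCap cells of room air but 872 of hyperoxia, so aCap levels were less exact in room air, and the part of this in the counts was not tested. The 192 shared higher genes became 229 without the gCap cells rich in aCap genes and 227 without the simulated doublets. Both kinds of cells were a larger share of the gCap cells in hyperoxia, and their part in the difference between the libraries was not tested. The 15 with the highest ratio, judged by the smaller of both libraries, were *Gpr182*, *Aplnr*, *Mcf2l*, *Sema3g*, *Edn1*, *Tmem2*, *Hey1*, *Tmem252*, *Tox3*, *Ptprb*, *Itga6*, *Dnah8*, *Kcnh1*, *Cxcl12* and *Prcp*. *Gpr182*, an atypical chemokine receptor gene, was higher by 3.93 on the log2 scale in room air and by 3.46 in hyperoxia. *Edn1*, which encodes the vasoconstrictor endothelin 1, was higher by 3.91 and 3.36, while the gene of its receptor B, *Ednrb*, differed by -5.58 and -3.21. The apelin pair stood the same way round, with *Aplnr* higher by 3.50 and 3.46 and *Apln* at -3.95 and -1.94. *Sema3g*, *Ptprb* and *Cxcl12* were higher by 2.70 to 3.63 in both libraries.

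Between the libraries 3 of these 15 genes, *Aplnr*, *Dnah8* and *Tox3*, were at least 2-fold lower in the gCap cells of hyperoxia, against 2.33% of all genes, and none was at least 2-fold higher. *Edn1* was at 190 CPM in both, and *Tmem2*, a hyaluronidase gene, at 682 and 620 CPM. *Sema3g*, a secreted semaphorin gene, was at 335 and 253 CPM, *Itga6*, the laminin-binding integrin alpha 6, at 600 and 458 CPM, and *Prcp*, a peptidase gene, at 366 and 227 CPM. *Tox3*, a chromatin-associated protein gene, was at 113 and 53.9 CPM, a log2 difference of -1.07 that was -0.85 without *Sema3c* in the limits. Arterial and venous gene lists were lower or alike, with medians of -0.27 (6 measured) and -0.11 (3 measured) and no gene past 2-fold.

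A few cells of the class were unlike the rest. *Fabp4* was at 3.13 CPM in room air against 341 CPM in hyperoxia, but 14 cells of hyperoxia held 99.1% of its 3272 UMIs there, up to 844 in 1 cell, and without the cells rich in *Fabp4*, *Glycam1*, *H19* or class II genes the log2 difference was -0.44 in place of 6.77. All 14 had *Gpihbp1* (1838 CPM), 13 had *Cd36*, 12 had *Cd300lg*, 12 had *Aplnr*, 9 had *Tcf15* and 6 had *Meox2*, while 5 had *Sema3c* and 6 had *Kit*. *Tcf15* and *Meox2* are known as the transcription factor pair of heart and muscle capillaries, where fatty acid uptake is high. No cell of room air had 10 UMIs of *Fabp4*.

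*Glycam1*, a mucin-like ligand of L-selectin made by high endothelial venules, had 0 UMIs in the gCap cells of room air, which allows up to 0.722 CPM, and 3712 UMIs (387 CPM) in those of hyperoxia, at least 536-fold higher. Only 3 cells, with 2736, 958 and 16 UMIs, held 99.9% of them. All 3 had *Plvap*, *Kit* and *Cd300lg*, and none had *Gpihbp1*, *Sema3c* or *Aplnr*, so they passed the limits through *Plvap* and *Kit*. The *Glycam1* cell with most UMIs was also among the 6 class II cells of hyperoxia. None of the 3 was among the 14 *Fabp4* cells. *H19*, an imprinted growth-related RNA, was at 53.7 and 2.82 CPM, and 6 cells of room air held 79.8% of its 223 UMIs. Its log2 difference of -4.25 was -5.77 without the simulated doublets.

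Genes of other cell types were among the most variable over gCap cells. Haemoglobin genes (*Hbb-bs*, *Hba-a1*, *Hba-a2*) led in room air, where 5 cells with at least 10 UMIs held 96.7% of them, and 21 cells held 98.6% in hyperoxia. *Eln* (elastin) and *Aspn*, genes of stromal cells, followed in room air, and *Sftpc*, *Col3a1* and *Col1a2* were variable in hyperoxia. *Sftpc*, the surfactant gene of alveolar type 2 cells, was found at 2000 UMIs in 45.5% of the gCap cells of room air and 59.9% of those of hyperoxia, below its share in B cells (55.0% and 77.8%). By this share it was no more frequent than free RNA, but some cells held many of its UMIs. In hyperoxia 22 gCap cells with at least 10 held 22.1% of them, up to 276 in 1 cell, and in room air 3 such cells held 5.44%. The 6 stromal markers summed to 1228 and 1388 CPM, the 6 epithelial to 824 and 941 CPM, the 5 erythroid to 1128 and 1411 CPM, the 6 myeloid to 109 and 115 CPM, the lymphocyte markers to 16.1 and 11.2 CPM and the platelet markers to 6.98 and 18.9 CPM. *Ptprc* and *Epcam* were at 0 by choice of the cells. Their part in the differences above was not tested further.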

How the data were processed

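Lung cells of 8 pooled mice per group were counted in 1 library each. The authors aligned the droplet scRNA-seq reads to mm10 with Cell Ranger (2.1.1 in the submitters' processing notes; the matrix header names software 3.1.0) and deposited raw UMI counts per gene and barcode, without normalization. The methods name a later Cell Ranger version than either, and the labels and the methods name different versions of the kit; the counts settle neither. From the counts, gCap cells were chosen by the limits above and their UMIs summed per library (Python 3.11.15, scipy 1.17.1, pandas 2.3.3). Genes with a mean of at least 20 CPM were compared; as each group is 1 library, none was tested. A count of 0 allowed 3 counts. Doublets were simulated at 0.8% per 1000 barcodes with scikit-learn 1.9.0, and edgeR 4.0.16 gave TMM factors. Sums and intervals were checked on simulated data that held counting error only, without a spread between cells. Named genes were list members, the 12 highest and 12 lowest ratios, the 15 highest gCap over aCap ratios and the 10 most variable genes per library; some are not reported here. The limits for the cells, the lists and the motifs were chosen with earlier results of these data known. A GENCODE annotation gave the positions of genes, and a RefSeq table on GRCm38.p6 gave the promoters. Alternatives were other limits, depths, filters and scalings, and cells by sex-linked genes.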

Additional observations from a re-analysis of the deposited data

How the results depend on the processing

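The lower gCap share of the endothelium kept its direction under every alternative run; the difference was -24.4 percentage points without *Sema3c* in the limits, -20.8 in cells with *Xist* UMIs, -10.7 in cells with Y-linked UMIs, and, under alternatives chosen after seeing the data, -20.3 without gCap cells rich in aCap genes and -10.5 without those that held most of the class II, *Glycam1*, *Fabp4* or *H19* UMIs, against -15.2. In cells with *Xist* UMIs, fewer in number, 236 genes were at least 2-fold higher and 243 lower, and 85 of the 124 and 92 of the 150 genes were shared. A minimum of 50 CPM left 68 higher, 71 lower and 103 genes higher in gCap than in aCap cells, and without a minimum there were 884, 1808 and 1099, since the minimum sets how many genes enter. The share of cells with a UMI differed by at least 10 percentage points for 77 named genes at 2000 UMIs and for 46 at 1000. Of 1168 values of 65 genes that differed by at least 2-fold, 1166 had the same sign under alternatives, but 184 of these 1166 left the counting interval of the value reported. In at least 1 alternative 19 of the 65 genes were under 2-fold, among them *Ednrb* (down to 0.33), *Kitl* (0.57), *Aplnr* (-0.68 in cells with *Xist* UMIs) and *Ccng1* (0.80 there). The exceptions in sign were *Hmox1*, at -0.13 in cells without UMIs of 6 stromal genes, and *Fabp4*, at -0.44 without the cells that held most of it. No paired analysis was possible because each group is a single library. What limits these data is that lack of replicates: differences between mice, or between the handling of the libraries, and the effect of oxygen cannot be told apart.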
